A study of Homo sapiens with 12 samples.

Results

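The 28 genes described here encode enzymes and regulators of sterol and fatty acid synthesis, and they were taken by symbol from a table of 36502 genes. They comprise 19 sterol genes, of the kind driven mainly by the transcription factor SREBP2, and 9 fatty acid genes, of the kind driven mainly by SREBP1. All 28 were present in the table and all passed the filter on low counts, which left 17262 genes for testing. RNA was sequenced from HT1080, a human fibrosarcoma cell line, in the setting of a study of contacts between the genome and the nuclear lamina. The series holds 12 libraries in 6 groups, with 2 libraries a group that the design text calls biological replicates.

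The VP16 clone carries the m6A-Tracer, a protein that binds adenine-methylated DNA, fused to the VP16 activation domain, and the GFP clone carries the tracer with GFP alone. Both clones also carry Dam-LaminB1, a bacterial adenine methyltransferase joined to lamin B1, which the compound Shield1 stabilises. VP16_tracer_Dam and GFP_tracer_Dam cells were kept in 50 ng/ml doxycycline for 3 days, then left without it for 24 h with 500 nM Shield1 added. VP16_tracer and GFP_tracer cells had the same schedule without Shield1. VP16_uninduced and GFP_uninduced cells had doxycycline for all 4 days, which keeps the tracer off. Each construct is represented by 1 clone, so clone and construct cannot be told apart. Expression of the tracer and withdrawal of doxycycline changed together, and so did Shield1 and Dam-LaminB1, so the parts of each pair cannot be told apart either.

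Sterol regulatory element binding proteins are made as membrane proteins of the endoplasmic reticulum. When sterols are scarce, they travel to the Golgi, are cleaved, and enter the nucleus to switch on their target genes. INSIG proteins hold them back when sterols are plentiful, and INSIG1 is itself a target gene. SREBP2, encoded by SREBF2, acts mainly on cholesterol synthesis. SREBP1, encoded by SREBF1, acts mainly on fatty acid synthesis, and SREBF1 is also transcribed under the oxysterol receptors LXR.

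The libraries held 18774905 to 24827396 counted reads and fell into index set 1 and index set 2. These are named here after the 6 index sequences in the library titles, each of which occurs in both sets, so that each set has 1 library of every group. Nothing further is stated on how the sets were made or on separate cultures, and p-values measure the spread between these libraries. Within a set, the deviations of libraries from their group mean correlated across genes at 0.415 to 0.858 over the 15 pairs of groups. The GFP_tracer_Dam and GFP_tracer libraries of index set 1 stood apart from the other 10 libraries. On the first principal component of all tested genes, with 45.4% of the variance, they lay at -87.0 and -78.2, against -16.2 to 41.0 for the rest. Results that rest on these libraries are therefore given with and without them. The markers matched a mesenchymal line, since the 12 mesenchymal markers summed to 8259 to 10680 CPM per library, where CPM are counts scaled by library size. Epithelial markers summed to 2.99 to 15.7 CPM, hepatocyte markers to 1.14 to 6.55 CPM, adipocyte markers to 0.0491 to 0.533 CPM and blood markers to 0.0929 to 0.566 CPM.

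The promoters of 7 members are printed first, because the results turn on sterol genes that were low together in 2 libraries and on the regulator genes SREBF2 and SREBF1. They come from RefSeq on GRCh38.p14, where 24 of the 28 members had 1 or more windows, and run from 250 bases before to 50 bases after the transcription start, on the strand of the gene. Capitals mark the NF-Y word CCAAT and the sterol regulatory element core CACNCCAC, each on either strand, so that CCAAT can appear as ATTGG. N stands for any base. The first 4 windows belong to sterol genes and the last 3 to fatty acid genes.
INSIG1 promoter, chr7:155297628-155297927, plus strand: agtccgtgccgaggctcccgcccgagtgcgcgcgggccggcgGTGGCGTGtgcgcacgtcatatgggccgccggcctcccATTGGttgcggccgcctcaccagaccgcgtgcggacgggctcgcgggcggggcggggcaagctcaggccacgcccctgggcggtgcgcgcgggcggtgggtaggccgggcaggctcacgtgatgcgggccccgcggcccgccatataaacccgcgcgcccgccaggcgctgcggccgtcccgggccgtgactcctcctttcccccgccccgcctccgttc
HMGCS1 promoter, chr5:43313363-43313662, minus strand: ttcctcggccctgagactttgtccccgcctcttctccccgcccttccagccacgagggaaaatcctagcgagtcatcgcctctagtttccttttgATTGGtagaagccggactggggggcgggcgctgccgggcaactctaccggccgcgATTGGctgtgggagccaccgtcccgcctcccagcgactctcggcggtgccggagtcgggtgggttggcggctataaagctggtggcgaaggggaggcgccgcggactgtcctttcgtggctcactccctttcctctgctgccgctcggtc
NSDHL promoter, chrX:152830813-152831112, plus strand: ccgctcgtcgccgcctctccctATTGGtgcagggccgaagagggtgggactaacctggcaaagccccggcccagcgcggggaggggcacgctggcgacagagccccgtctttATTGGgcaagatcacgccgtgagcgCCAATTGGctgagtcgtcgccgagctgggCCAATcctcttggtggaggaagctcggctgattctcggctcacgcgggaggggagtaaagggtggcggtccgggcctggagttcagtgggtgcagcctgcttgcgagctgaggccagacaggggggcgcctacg
SREBF2 promoter, chr22:41832855-41833154, plus strand: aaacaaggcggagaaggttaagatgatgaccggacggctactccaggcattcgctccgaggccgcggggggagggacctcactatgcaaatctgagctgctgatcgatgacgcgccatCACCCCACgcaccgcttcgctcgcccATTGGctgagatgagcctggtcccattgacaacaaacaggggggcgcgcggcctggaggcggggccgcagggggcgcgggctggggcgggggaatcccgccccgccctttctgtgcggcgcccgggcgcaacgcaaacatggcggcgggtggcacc
ELOVL6 promoter, chr4:110198566-110198865, minus strand: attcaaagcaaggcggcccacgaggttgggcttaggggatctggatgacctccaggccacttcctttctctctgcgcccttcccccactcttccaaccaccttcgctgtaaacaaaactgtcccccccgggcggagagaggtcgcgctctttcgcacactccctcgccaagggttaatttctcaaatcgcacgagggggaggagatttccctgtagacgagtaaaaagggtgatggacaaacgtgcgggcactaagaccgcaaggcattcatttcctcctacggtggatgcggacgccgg
SCD promoter, chr10:100346983-100347282, plus strand: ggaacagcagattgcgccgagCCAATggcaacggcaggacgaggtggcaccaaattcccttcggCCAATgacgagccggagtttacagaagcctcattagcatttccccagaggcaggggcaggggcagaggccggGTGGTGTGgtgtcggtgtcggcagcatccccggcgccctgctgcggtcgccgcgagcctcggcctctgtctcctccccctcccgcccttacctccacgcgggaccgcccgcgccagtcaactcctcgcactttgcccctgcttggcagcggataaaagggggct
SREBF1 promoter, chr17:17836937-17837236, minus strand: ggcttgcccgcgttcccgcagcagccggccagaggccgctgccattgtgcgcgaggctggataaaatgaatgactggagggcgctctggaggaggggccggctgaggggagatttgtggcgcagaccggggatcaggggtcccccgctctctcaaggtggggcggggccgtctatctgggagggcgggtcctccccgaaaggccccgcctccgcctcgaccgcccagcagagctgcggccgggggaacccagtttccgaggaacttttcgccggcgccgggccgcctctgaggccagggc

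CCAAT occurred in 15 of the 20 windows of sterol genes (75.0%) and in 6 of the 14 windows of fatty acid genes (42.9%). Over all 35116 RefSeq promoter windows of that length, 34.6% held it. The core CACNCCAC was found in windows of IDI1, INSIG1 and SREBF2 among the sterol genes and of ACACA and SCD among the fatty acid genes, and in 5.87% of all windows. Its longer form TCACNCCAC, which contains the core, was present in SREBF2 alone among the members and in 1.13% of all windows. The GC box GGGCGG was present in 18 of 20 sterol windows and 11 of 14 fatty acid windows, against 45% of all. Of the printed promoters, NSDHL held CCAAT at 5 places, counting both strands, and ELOVL6 and SREBF1 held neither marked word. These matches describe letters in a window, and binding at them was not tested.

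Fatty acid genes held the highest levels among the members. Per kilobase of exon, the median over the 12 libraries was 132 CPM for FASN, the fatty acid synthase, and 128 CPM for ACLY, which makes cytosolic acetyl-CoA from citrate. SCD, the desaturase that makes oleate, had 99.3 CPM per kilobase. The highest sterol enzyme on that scale was DHCR7, which carries out the last step to cholesterol in one branch of the pathway, at 53.5 CPM per kilobase. The regulator SREBF2 had 50.7 CPM per kilobase and SREBF1 had 25.6. The lowest were TM7SF2, a sterol C14-reductase, at 2.61 and CYP51A1, the lanosterol 14-demethylase, at 2.09 CPM per kilobase. ACACA had no match by gene identifier in the annotation used for lengths.

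In the GFP clone, the sterol genes were low in the GFP_tracer_Dam and GFP_tracer libraries of index set 1 and close to GFP_uninduced in index set 2. Within index set 1, the median log2 difference of the 19 sterol genes from GFP_uninduced was -0.77 in GFP_tracer_Dam, with 17 negative, and -0.60 in GFP_tracer, with 18 negative. Within index set 2, the same medians were 0.04 in GFP_tracer_Dam, with 5 negative, and 0.00 in GFP_tracer, with 9 negative. The median over all tested genes lay between 0.00 and 0.03 in these 4 comparisons. Both tracer groups are set against the same uninduced libraries, so the comparisons share them. In bulk RNA, fewer cells of a kind and less RNA per cell cannot be told apart.

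INSIG1 (chromosome 7, 155089486 to 155101945 on GRCh37, the build of the count table) encodes the retention protein of the SREBP pathway. It had 27.5 and 91.4 CPM in the GFP_tracer_Dam libraries of index sets 1 and 2, 23.7 and 83.9 CPM in GFP_tracer, and 73.5 and 89.3 CPM in GFP_uninduced. The index set 1 value was the low one in each of the 3 groups, and the groups overlapped. HMGCS1 (chromosome 5, 43289497 to 43313614), the cytosolic synthase that makes HMG-CoA, had 40.3 and 120 CPM in GFP_tracer_Dam, 39.2 and 114 CPM in GFP_tracer, and 113 and 106 CPM in GFP_uninduced. Its group mean was 76.4 ± 52.6 CPM in GFP_tracer, against 110 ± 4.87 CPM in GFP_uninduced (SD, n = 2 each). Between the single libraries of index set 1, the GFP_tracer to GFP_uninduced ratio was 0.323 for INSIG1, with a 95% exact binomial interval of 0.291 to 0.357 that covers counting error only. For HMGCS1 it was 0.346, with an interval of 0.319 to 0.375. These intervals compare libraries and not conditions.

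Other enzymes of the pathway also stood well below GFP_uninduced in index set 1. IDI1, the isopentenyl diphosphate isomerase, had 41.2 and 117 CPM in GFP_tracer_Dam, 47.2 and 110 CPM in GFP_tracer, and 120 and 104 CPM in GFP_uninduced, in index sets 1 and 2. SQLE, the squalene epoxidase, had 45.02 and 110 CPM in GFP_tracer_Dam, 44.1 and 109 CPM in GFP_tracer, and 104 and 100.4 CPM in GFP_uninduced. NSDHL (chromosome X, 151999511 to 152038273), which takes part in removing the C4 methyl groups, had 17.9 and 36.7 CPM in GFP_tracer_Dam, 20.7 and 35.6 CPM in GFP_tracer, and 42.2 and 34.6 CPM in GFP_uninduced. In all 3 genes the tracer libraries of index set 1 were the low ones and those of index set 2 lay above their uninduced partner. A log2 difference below -1 in index set 1 was found for 8 of 19 sterol genes and 0 of 9 fatty acid genes in GFP_tracer_Dam, where 5.98% of all tested genes passed it. For GFP_tracer it was found for 5 sterol genes and 1 fatty acid gene, where 4.18% of all tested genes passed it. In index set 2, no member passed it in either comparison, against 1.16% of tested genes in GFP_tracer_Dam and 1.04% in GFP_tracer.

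Not every sterol gene took part. SREBF2 had 280 and 302 CPM in GFP_tracer_Dam, 280.4 and 294 CPM in GFP_tracer, and 270 and 308 CPM in GFP_uninduced, so its groups overlapped and its tracer libraries of index set 1 were not low. PMVK, the phosphomevalonate kinase, stood at -0.15 log2 in GFP_tracer_Dam and -0.12 in GFP_tracer of index set 1, and TM7SF2 stood at 0.08 in GFP_tracer_Dam and -0.25 in GFP_tracer. MVK, the mevalonate kinase, had 11.7 CPM in GFP_tracer_Dam and 18.6 CPM in GFP_tracer of index set 1, against 28.8 CPM in GFP_uninduced. ACAT2, a cytosolic thiolase that supplies acetoacetyl-CoA, had 24.1 CPM in GFP_tracer_Dam and 37.4 CPM in GFP_tracer, against 57.2 CPM in GFP_uninduced. These 2 genes had the most negative differences between GFP_tracer_Dam and GFP_tracer of index set 1, at -0.66 for MVK and -0.63 for ACAT2. Over the 19 sterol genes the median of that difference was -0.19 within index set 1, and 0.05 within index set 2.

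**Figure D1:**
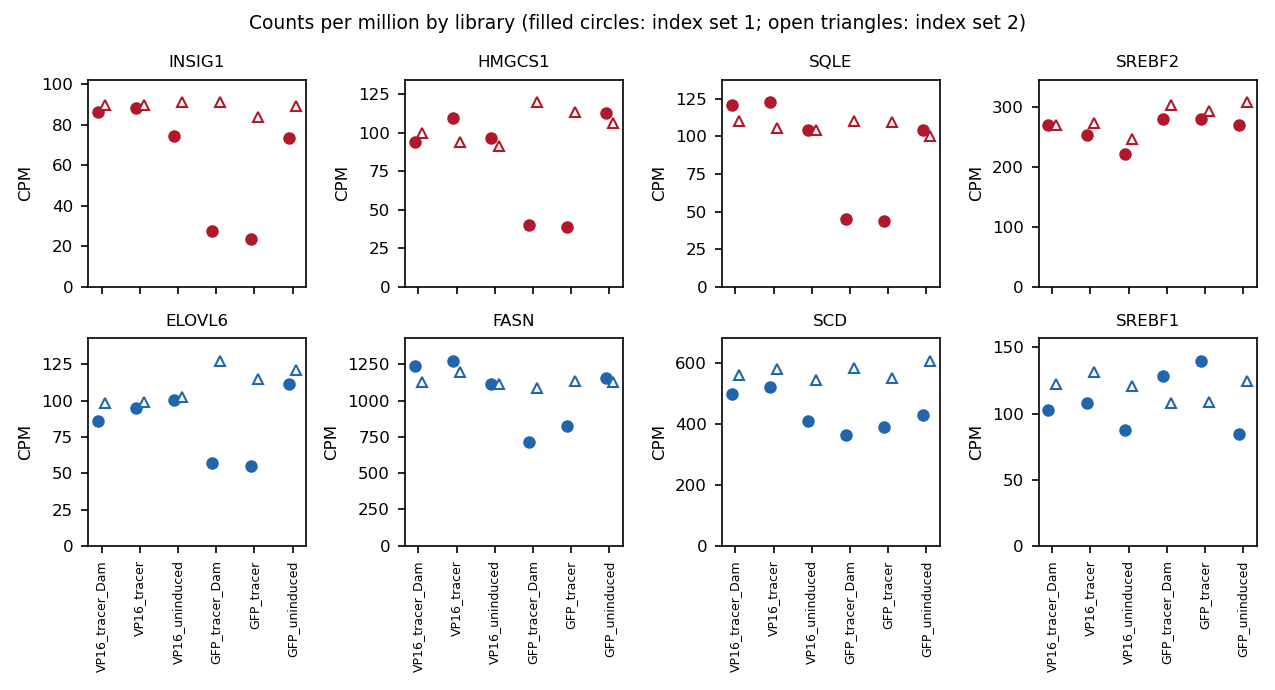
CPM on the vertical axis in each of the 12 libraries for 4 sterol genes (red, top) and 4 fatty acid genes (blue, bottom); filled circles are index set 1 and open triangles index set 2. INSIG1, HMGCS1, SQLE, ELOVL6 and FASN are low in the GFP_tracer_Dam and GFP_tracer libraries of index set 1, while SREBF2 is not (280 CPM in each) and SREBF1 has 128 and 140 CPM there.

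The fatty acid genes were more divided. Their median difference from GFP_uninduced in index set 1 was -0.25 in GFP_tracer_Dam, with 8 of 9 negative, and -0.14 in GFP_tracer, with 7 of 9 negative. In index set 2 it was 0.01 in GFP_tracer_Dam and -0.07 in GFP_tracer. ELOVL6 (chromosome 4, 110967002 to 111120355), which lengthens palmitate, had 57.2 and 128 CPM in GFP_tracer_Dam, 54.9 and 115 CPM in GFP_tracer, and 111 and 121 CPM in GFP_uninduced, in index sets 1 and 2. FASN had 715 and 1088 CPM in GFP_tracer_Dam, 824 and 1136 CPM in GFP_tracer, and 1152 and 1130 CPM in GFP_uninduced. Both enzymes were lowest in the tracer libraries of index set 1. SREBF1 (chromosome 17, 17714653 to 17740325) ran the other way, with 128 and 108 CPM in GFP_tracer_Dam, 140 and 109 CPM in GFP_tracer, and 84.5 and 124 CPM in GFP_uninduced. Its index set 1 ratio to GFP_uninduced was 1.52 in GFP_tracer_Dam, with a counting interval of 1.44 to 1.61, and 1.66 in GFP_tracer, with an interval of 1.56 to 1.76. The 2 GFP_uninduced libraries of SREBF1 themselves differed by -0.56 log2 between the sets. Of the other fatty acid enzymes in index set 1, ACLY stood at -0.55 in GFP_tracer_Dam and -0.36 in GFP_tracer, and ACACA, SCD, FADS1, FADS2 and LPIN1 stood between -0.25 and 0.07.

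None of the 28 members was called in any comparison within the GFP clone. With edgeR's quasi-likelihood test over all 12 libraries and Benjamini-Hochberg adjustment at 0.05, 0 members and 0% of the 17262 tested genes were called for GFP_tracer_Dam against GFP_uninduced, GFP_tracer against GFP_uninduced and GFP_tracer_Dam against GFP_tracer. DESeq2 and limma-voom also called 0 members, and 0 members had an unadjusted p under 0.05 with any of the 3 tools. Taking the index set into the fit as a block gave 0 as well. Without the 2 libraries that stood apart, 14 of 19 sterol genes were positive in GFP_tracer_Dam against GFP_uninduced with a median of 0.02 and 7 of 9 fatty acid genes with a median of 0.14, and in GFP_tracer the medians were 0.03 for sterol genes and 0.07 for fatty acid genes. No member was called in either. This fit sets single tracer libraries of index set 2 against GFP_uninduced libraries of both sets. Within index set 2, as above, the fatty acid medians were 0.01 in GFP_tracer_Dam, with 5 of 9 positive, and -0.07 in GFP_tracer, with 4 of 9 positive.

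Genes outside the member list also stood apart in the same 2 libraries. Of 6 further genes of sterol synthesis, 5 were negative in index set 1 in both comparisons with GFP_uninduced, with a median of -0.80 in GFP_tracer_Dam and -0.66 in GFP_tracer, and none was negative in index set 2. The 12 genes of sterol sensing, uptake and traffic had a median near 0, at -0.05 in GFP_tracer_Dam and -0.04 in GFP_tracer of index set 1. The 7 tested genes of the LXR and efflux list had medians of 0.58 in GFP_tracer_Dam, with 1 negative, and 0.30 in GFP_tracer, with 2 negative, in index set 1. Among them ABCA1, the cholesterol exporter, had 521 and 147 CPM in GFP_tracer_Dam, 452 and 145 CPM in GFP_tracer, and 175 and 167 CPM in GFP_uninduced. The 19 tested genes of other fatty acid and lipid synthesis had medians of 0.00 in GFP_tracer_Dam and -0.01 in GFP_tracer of index set 1. No gene of these lists was called within the GFP clone.

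Stress and cell cycle genes stood apart there too. In index set 1 the 10 genes of the ATF4 stress list were all positive, with a median log2 difference from GFP_uninduced of 2.77 in GFP_tracer_Dam and 2.68 in GFP_tracer, and in index set 2 the medians were -0.12 in GFP_tracer_Dam and -0.16 in GFP_tracer. DDIT3, the stress factor CHOP, had 77.4 CPM in GFP_tracer_Dam and 93.6 CPM in GFP_tracer of index set 1, against 6.79 CPM in GFP_uninduced. The 10 genes of the G1/S list were all negative in index set 1, with medians of -1.69 in GFP_tracer_Dam and -1.13 in GFP_tracer, and stood near 0 in index set 2, at -0.004 in GFP_tracer_Dam and 0.10 in GFP_tracer. Epithelial markers summed to 15.7 CPM in GFP_tracer_Dam of index set 1, against 4.08 CPM in GFP_uninduced of that set. The part of these genes in the sterol values was not tested.

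**Figure D2:**
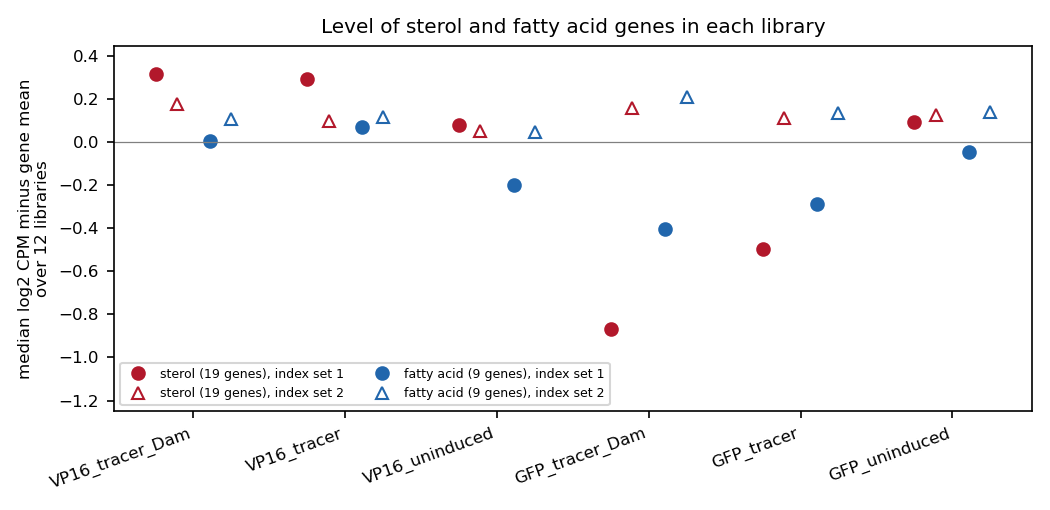
Median over the 19 sterol genes (red) and the 9 fatty acid genes (blue) of log2 CPM minus the mean of each gene over the 12 libraries, for each group on the horizontal axis; filled circles are index set 1 and open triangles index set 2. The lowest sterol values are -0.87 in GFP_tracer_Dam and -0.49 in GFP_tracer of index set 1, and the highest are 0.32 in VP16_tracer_Dam and 0.29 in VP16_tracer of the same set.

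In the VP16 clone, most members had higher values once the tracer was on, by small amounts. Against VP16_uninduced, 18 of 19 sterol genes and 8 of 9 fatty acid genes were positive in VP16_tracer_Dam, with medians of 0.18 and 0.09 log2. In VP16_tracer 18 of 19 and 8 of 9 were positive as well, with medians of 0.14 for each subset. Over all tested genes the medians were 0.00 in both comparisons, which share the VP16_uninduced libraries. In VP16_tracer_Dam, 15 of 19 sterol genes and 7 of 9 fatty acid genes were positive in both index sets, against 33.3% of all tested genes. In VP16_tracer it was 16 of 19 and 8 of 9, against 28.8%. In both comparisons PMVK was the 1 sterol gene and ELOVL6 the 1 fatty acid gene with a negative difference in the fit to both sets together. ELOVL6 was negative within each set. PMVK was positive within index set 2, at 0.07 log2 in VP16_tracer_Dam and 0.02 in VP16_tracer.

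**Figure D3:**
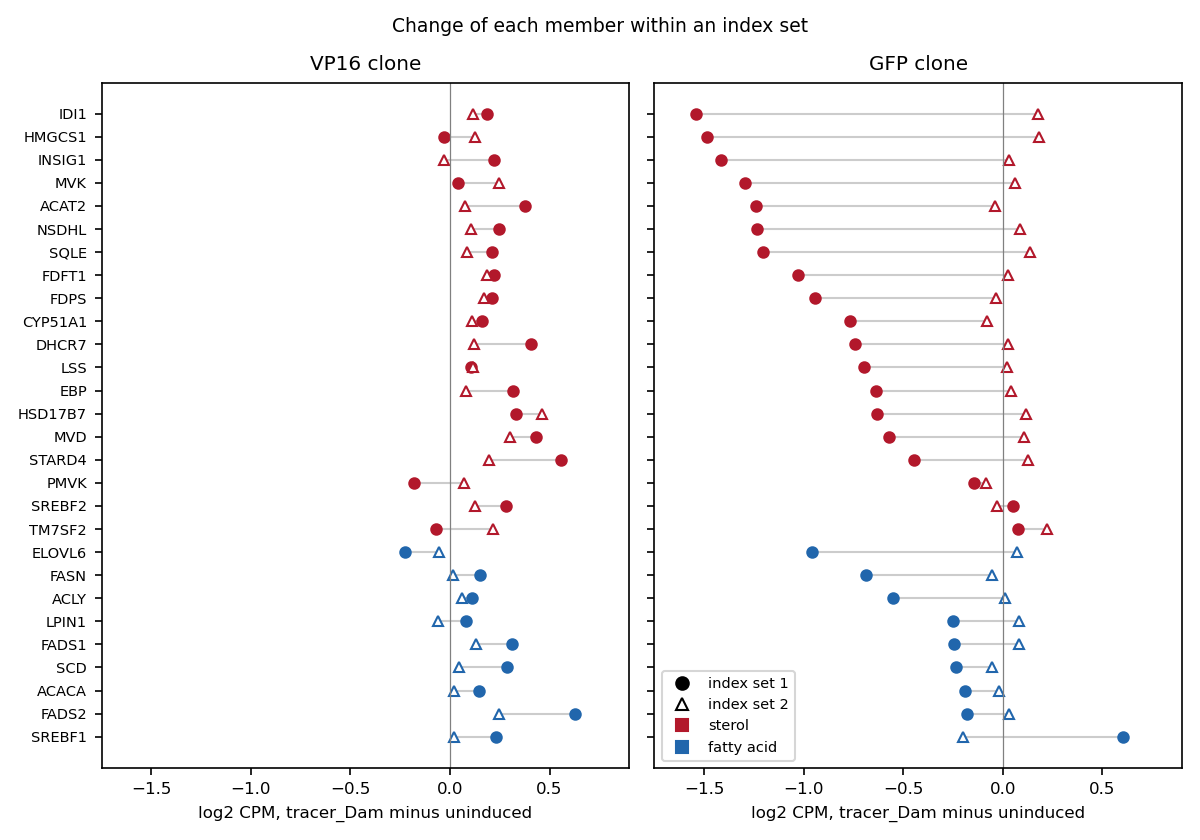
Log2 CPM difference of tracer_Dam from uninduced for each of the 28 members, in the VP16 clone (left) and the GFP clone (right); filled circles are index set 1, open triangles index set 2, red sterol and blue fatty acid genes. In the VP16 clone both sets lie between -0.23 and 0.63, whereas in the GFP clone the index set 1 points of IDI1, HMGCS1 and INSIG1 lie below -1.4 and all index set 2 points lie between -0.20 and 0.22.

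The calls for these differences depended on which libraries set the spread. With all 12 libraries, edgeR called 0 members and 0% of tested genes for VP16_tracer_Dam against VP16_uninduced, for VP16_tracer against VP16_uninduced and for VP16_tracer_Dam against VP16_tracer. At an unadjusted p under 0.05 edgeR and limma-voom had 0 members in all 3. DESeq2 had 1 member, in VP16_tracer_Dam against VP16_uninduced, beside 141 of all 17262 tested genes. Blocked by index set over all 12 libraries, edgeR also called 0 members. In VP16_tracer_Dam against VP16_uninduced 2 members had an unadjusted p under 0.05, beside 623 of all 17262 tested genes. A blocked fit to only the 6 VP16 libraries, which leaves out the GFP clone and was chosen after seeing the data, called 10 members for VP16_tracer_Dam against VP16_uninduced, all higher. They were 9 of 19 sterol genes and 1 of 9 fatty acid genes, against 9.75% of all 16139 genes tested called in either direction and 5.58% called higher. For VP16_tracer against VP16_uninduced that fit called 1 member, FDFT1 (0.19 ± 0.05 log2, SE, edgeR adjusted p = 0.0454), against 0.861% of all genes. For VP16_tracer_Dam against VP16_tracer it called 0, against 0.0806%. There 4 members had an unadjusted p under 0.05, beside 1548 of all 16139 genes tested.

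These calls were not stable to the libraries used. In the fit to 8 libraries that adds GFP_uninduced, the block left 0 members called for VP16_tracer_Dam against VP16_uninduced, against 0.278% of all genes. In the blocked fit to the 6 VP16 libraries, 1 of the 4 libraries compared was also left out at a time. For VP16_tracer_Dam against VP16_uninduced, the sterol median then lay between 0.13 and 0.24 log2. The fatty acid median of that comparison lay between 0.03 and 0.17 log2. For VP16_tracer against VP16_uninduced, the sterol median lay between 0.11 and 0.20 and the fatty acid median between 0.07 and 0.22. For VP16_tracer_Dam against VP16_tracer, the sterol median lay between 0.01 and 0.06 and the fatty acid median between -0.10 and -0.01. Each of these fits with a library left out had 1 residual degree of freedom. The lone library of a group was assumed to vary like the rest, so the members called are not counted here.

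Among the 10 called members, MVD (chromosome 16, 88718343 to 88729569), the mevalonate diphosphate decarboxylase, had the smallest p. It had 47.1 and 33.0 CPM in VP16_tracer_Dam, 38.2 and 30.5 CPM in VP16_tracer, and 34.9 and 26.8 CPM in VP16_uninduced, in index sets 1 and 2. The order of the groups was the same in both sets, although the groups overlapped across sets. The difference of VP16_tracer_Dam from VP16_uninduced was 0.38 ± 0.07 log2 (SE, edgeR adjusted p = 0.0012). HSD17B7, the 3-ketosteroid reductase of the C4 demethylation steps, had 11.2 and 10.9 CPM in VP16_tracer_Dam, 10.9 and 9.39 CPM in VP16_tracer, and 8.91 and 7.88 CPM in VP16_uninduced, and rose by 0.41 ± 0.11 log2 (edgeR adjusted p = 0.0221). STARD4, a carrier of cholesterol between membranes, had 110 and 92.6 CPM in VP16_tracer_Dam, 102 and 86.4 CPM in VP16_tracer, and 74.5 and 80.8 CPM in VP16_uninduced. In both genes VP16_tracer_Dam lay above VP16_uninduced with no overlap, and STARD4 rose by 0.38 ± 0.09 log2 (edgeR adjusted p = 0.0431). The share of all tested genes that separate in this way was not counted, here or for the other called members.

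The other 7 rose by less. FADS1, the delta-5 desaturase, rose by 0.23 ± 0.05 log2 (edgeR adjusted p = 0.00374), with 282 and 266 CPM in VP16_tracer_Dam, 261 and 249 CPM in VP16_tracer, and 227 and 243 CPM in VP16_uninduced. SREBF2 rose by 0.21 ± 0.04 log2 (edgeR adjusted p = 0.00395), with 269 and 269 CPM in VP16_tracer_Dam, 253 and 274 CPM in VP16_tracer, and 222 and 246 CPM in VP16_uninduced. VP16_tracer_Dam was above VP16_uninduced in both libraries of both genes. FDFT1, the squalene synthase, had 143 and 126 CPM in VP16_tracer_Dam, 142 and 123 CPM in VP16_tracer, and 123 and 111 CPM in VP16_uninduced. FDPS, the farnesyl diphosphate synthase, had 63.4 and 59.4 CPM in VP16_tracer_Dam, 58.3 and 59.7 CPM in VP16_tracer, and 54.7 and 52.7 CPM in VP16_uninduced. Both enzymes were higher in VP16_tracer_Dam with no overlap with VP16_uninduced, and FDFT1, ACAT2, EBP, FDPS and IDI1 rose by 0.16 to 0.23 log2. FADS2, the delta-6 desaturase, had the widest difference of all members at 0.44 ± 0.11 log2 and was not called (edgeR adjusted p = 0.104). It had 344 and 278 CPM in VP16_tracer_Dam, 309 and 266 CPM in VP16_tracer, and 223 and 234 CPM in VP16_uninduced. The spans of FADS1 and FADS2 overlap in the count table and the strand setting of the counting is not given in the sources used here, so their reads may be shared. ELOVL6 had 85.8 and 98.4 CPM in VP16_tracer_Dam, 94.8 and 98.9 CPM in VP16_tracer, and 100.4 and 102 CPM in VP16_uninduced.

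**Figure D4:**
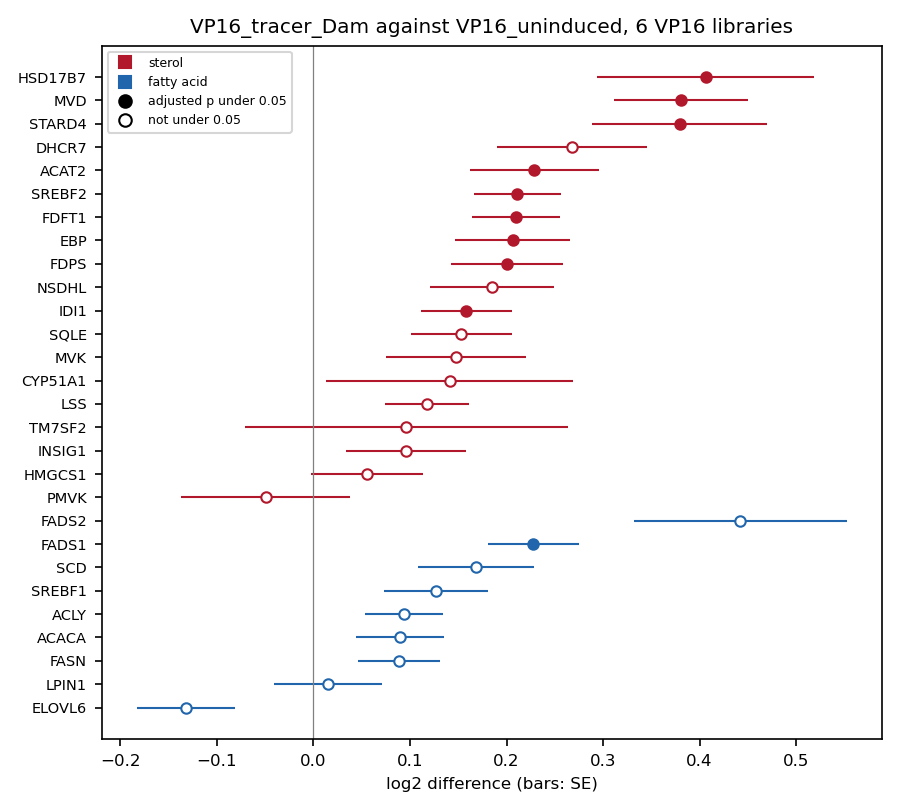
Log2 difference of VP16_tracer_Dam from VP16_uninduced with its standard error for the 28 members, from the blocked fit to the 6 VP16 libraries; red are sterol and blue fatty acid genes, and filled symbols have an adjusted p under 0.05. The 10 called genes lie between 0.16 and 0.41, PMVK and ELOVL6 lie below 0, and FADS2 at 0.44 is not called.

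Beside these changes in the VP16 clone, the 6 further genes of sterol synthesis were all positive in VP16_tracer_Dam against VP16_uninduced, with a median of 0.14 log2. The 12 genes of sensing, uptake and traffic had a median of 0.07 and the 7 tested genes of the LXR and efflux list one of 0.10. The 19 tested genes of other fatty acid and lipid synthesis had a median of 0.04. SLC25A1, the mitochondrial citrate carrier, had 92.2 and 77.5 CPM in VP16_tracer_Dam, 81.6 and 73.3 CPM in VP16_tracer, and 73.8 and 68.2 CPM in VP16_uninduced. With all 12 libraries none of these lists held a called gene. The 10 genes of the G1/S list were all negative in VP16_tracer_Dam, with a median of -0.37, and the ATF4 stress list had a median of 0.01. Their part in the sterol and fatty acid values was not tested.

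With the tracer on, Shield1 went with small differences of either sign in the VP16 clone. VP16_tracer_Dam minus VP16_tracer had a median of 0.03 log2 over the sterol genes, with 15 of 19 positive, and of -0.06 over the fatty acid genes, with 7 of 9 negative. The difference was negative in both index sets for 7 of 9 fatty acid genes, against 27.7% of all tested genes, and positive in both for 11 of 19 sterol genes, against 28% of all. LPIN1 had 130 and 139 CPM in VP16_tracer_Dam, against 150 and 145 CPM in VP16_tracer in index sets 1 and 2. NSDHL had 52.9 and 40.1 CPM in VP16_tracer_Dam, against 45.7 and 36.6 CPM in VP16_tracer. Neither was called in any fit to all libraries of the clone.

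The response to the tracer was compared between the clones as a difference of differences. Over the 19 sterol genes, the VP16 response exceeded the GFP response by a median of 0.44 log2, and over the 9 fatty acid genes by 0.26. In index set 1 these medians were 0.79 and 0.48, and in index set 2 they were 0.09 and 0.10. Without the 2 libraries that stood apart they were 0.15 and 0.11. edgeR called 0 members and 0% of tested genes, with 0 members at an unadjusted p under 0.05, and DESeq2 and limma-voom called 0. For the response to Shield1 the medians were 0.12 for sterol genes and -0.02 for fatty acid genes, again with 0 members and 0% of genes called by all 3 tools.

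Between the clones in the uninduced state, 12 of 19 sterol genes and 8 of 9 fatty acid genes had lower values in VP16_uninduced, with medians of -0.05 and -0.06 log2. With all 12 libraries edgeR called 0 members for VP16_uninduced against GFP_uninduced, where 0.278% of tested genes were called, 0.0753% higher and 0.203% lower. At an unadjusted p under 0.05 it had 2 members, SREBF2 and DHCR7, beside 1287 of all 17262 tested genes. DESeq2 and limma-voom also called 0 members. The fit to the 8 libraries without the GFP_tracer_Dam and GFP_tracer groups, blocked by index set, called 8 members, 7 lower and 1 higher, against 21.7% of all 16553 genes, 12.3% lower and 9.44% higher. This fit was added after seeing the data. DHCR7 (chromosome 11, 71139239 to 71163914) had 119 and 108 CPM in VP16_uninduced, against 182 and 150 CPM in GFP_uninduced, in index sets 1 and 2. The groups did not overlap, and DHCR7 was lower in VP16_uninduced by -0.56 ± 0.07 log2 (SE, edgeR adjusted p = 0.000317). How many of all tested genes had no overlap between these groups was not counted. SREBF2 (chromosome 22, 42229109 to 42303312) had 222 and 246 CPM in VP16_uninduced, against 270 and 308 CPM in GFP_uninduced, a difference of -0.32 ± 0.05 (edgeR adjusted p = 0.00116). FADS1, LSS, MVD, HMGCS1 and ELOVL6 were lower by -0.32 to -0.21, and EBP was higher by 0.25 ± 0.07 (edgeR adjusted p = 0.0163). Leaving out 1 of the 4 uninduced libraries moved the sterol median between -0.13 and 0.03 log2 and the fatty acid median between -0.18 and -0.02. Each of these fits left a lone library in a group, so the members called are not counted here. DHCR7 and SREBF2 were among the called members each time. The 2 GFP_uninduced libraries are also the baseline of the GFP comparisons above.

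Over the 3 conditions together, the VP16 clone stood above the GFP clone for most sterol genes, at a median of 0.27 log2 with 14 of 19 positive, and fatty acid genes had a median of 0.06 with 5 of 9 positive. Without the 2 libraries that stood apart, the sterol median was 0.00 with 11 of 19 positive, and the fatty acid median was -0.11 with 4 of 9 positive. That fit holds unequal numbers of libraries from the 2 sets, and within index set 2 the medians were -0.04 for sterol genes and 0.02 for fatty acid genes. edgeR called 0 members, where 7.64% of tested genes were called, 2.62% higher and 5.01% lower. At an unadjusted p under 0.05 it had 4 members, beside 4098 of all 17262 tested genes. DESeq2 called 1, against 12.8% of genes, and limma-voom called 1, against 7.25%. Blocking by index set gave 2 called members, against 20.9% of genes, 9.03% higher and 11.9% lower. EBP (chromosome X, 48379546 to 48387104), the sterol isomerase, was higher by 0.55 ± 0.13 log2 (edgeR adjusted p = 0.0221), and SREBF2 was lower by -0.18 ± 0.04 (edgeR adjusted p = 0.0232).

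EBP had 77.8 and 66.9 CPM in VP16_tracer_Dam, 69.4 and 66.1 CPM in VP16_tracer and 62.5 and 63.2 CPM in VP16_uninduced, in index sets 1 and 2. In the GFP clone it had 34.6 and 52.2 CPM in GFP_tracer_Dam, 34.6 and 54.7 CPM in GFP_tracer and 54.0 and 50.7 CPM in GFP_uninduced. It was the 1 member with every VP16 library above every GFP library, a separation that 4.59% of tested genes showed in that direction and 6.08% in the other. Without the 2 libraries that stood apart, GFP_tracer_Dam and GFP_tracer each kept 1 library, so calls for the clones in that fit are not counted here. EBP was higher there by 0.33 ± 0.07 log2, and FADS1 at -0.27 ± 0.06 and ELOVL6 at -0.32 ± 0.06 were lower. ELOVL6 had 85.8 to 102 CPM over the 6 VP16 libraries, against 111 to 128 CPM over the 4 GFP libraries that did not stand apart. The share of all tested genes that separate between these 6 and 4 libraries was not counted.

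The members were also set against each other between the index sets. Index set 1 against index set 2 over all 12 libraries gave 3 called members, all lower in index set 1, where 28.2% of tested genes were called and 12.6% were lower. ACACA (chromosome 17, 35441923 to 35766902), the carboxylase that makes malonyl-CoA, had 166 to 206 CPM over the 6 libraries of index set 1, with a median of 184, against 240 to 255 CPM and a median of 248 in index set 2. The sets did not overlap, and the difference was -0.42 ± 0.05 log2 (SE, edgeR adjusted p = 0.00111). SCD (chromosome 10, 102106877 to 102124591) had 364 to 521 CPM in index set 1, with a median of 419, against 544 to 608 CPM and a median of 570 in index set 2. The difference was -0.40 ± 0.08 (edgeR adjusted p = 0.00738), again with no overlap. CYP51A1 had 3.30 to 6.99 CPM in index set 1 with a median of 5.96, against 7.02 to 8.10 CPM and a median of 7.64 in index set 2. Its difference of -0.52 ± 0.17 was called at an edgeR adjusted p of 0.0493 and was not called when any 1 library was left out. Of all tested genes, 7.22% were lower in index set 1 with no overlap between 6 and 6 libraries.

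Without the GFP_tracer_Dam and GFP_tracer groups, the medians of sterol and fatty acid genes took opposite signs between the index sets. The 19 sterol genes then had a median difference of 0.10 log2, with 14 positive, and the 9 fatty acid genes one of -0.10, with 3 positive, while all tested genes had one of 0.01. edgeR called 11 of the 28 members in these 8 libraries, against 40.9% of all genes. Of these, 6 sterol genes were higher in index set 1, against 20.7% of genes called higher, and 2 sterol and 3 fatty acid genes were lower, against 20.2% called lower. The share of members called was near that of all genes. MVD was the most positive at 0.40 ± 0.05 (edgeR adjusted p = 4.9e-05), with values of 0.32 to 0.51 in each of the 4 groups. DHCR7, NSDHL, IDI1, MVK and FDFT1 were higher by 0.14 to 0.33. SREBF1 was the most negative at -0.39 ± 0.05 (edgeR adjusted p = 8.33e-05), and it was lower in index set 1 in all 4 groups. ACACA at -0.38, SCD at -0.31, INSIG1 at -0.16 and SREBF2 at -0.11 were the other 4 lower ones. Without only the 2 libraries that stood apart, 13 members were called, against 39.6% of genes, with ELOVL6 at -0.11 and LPIN1, a phosphatidate phosphatase, at -0.12 added.

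**Figure D5:**
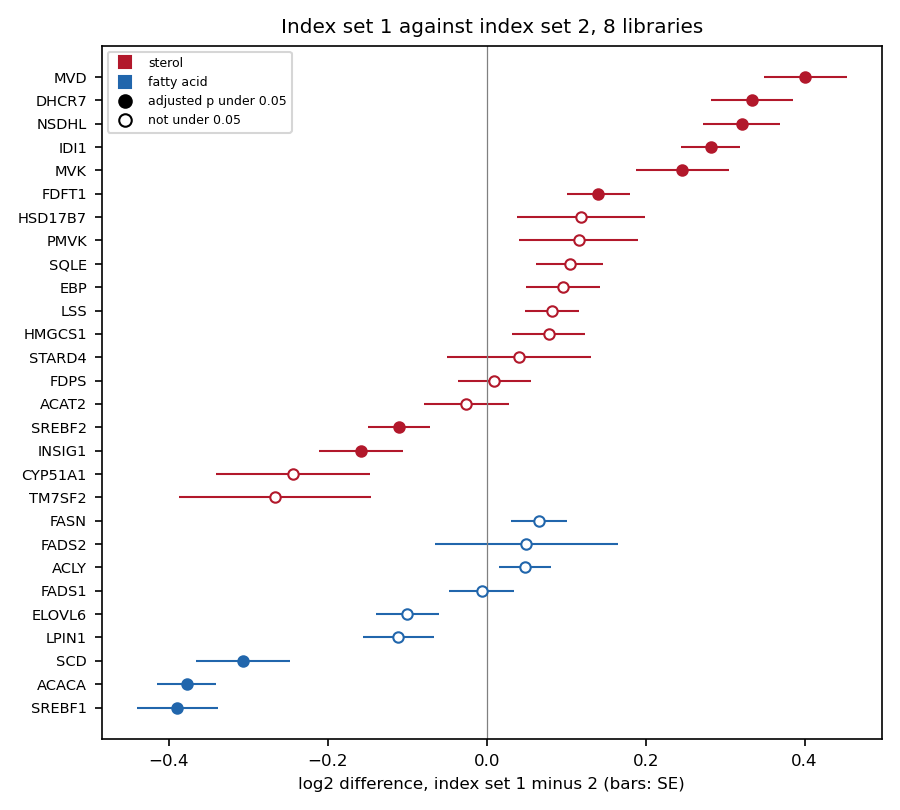
Log2 difference of index set 1 from index set 2 with its standard error for the 28 members, over the 8 libraries without the GFP_tracer_Dam and GFP_tracer groups; red are sterol and blue fatty acid genes, and filled symbols have an adjusted p under 0.05. Sterol genes run from MVD at 0.40 to TM7SF2 at -0.27, and fatty acid genes from FASN at 0.07 to SREBF1 at -0.39.

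For each library, the log2 CPM of a gene was taken minus its mean over the 12 libraries, including the 2 that stood apart. The sterol median minus the fatty acid median of these values differed between the sets. In index set 1 it was 0.31 in VP16_tracer_Dam, 0.22 in VP16_tracer, 0.28 in VP16_uninduced, -0.47 in GFP_tracer_Dam, -0.21 in GFP_tracer and 0.14 in GFP_uninduced. In index set 2 all 6 libraries lay between -0.05 and 0.07. The values of -0.47 and -0.21 belong to the 2 libraries that stood apart, and the other 4 libraries of index set 1 were positive. Since those 2 libraries enter the mean of each gene, the sign of a value depends in part on them. A score over members carries no test here.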

How the data were processed

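RNA-seq counts per gene were deposited by the authors as 1 table of whole reads for 12 libraries, 2 in each of 6 groups assigned by the source names. Per the submitters' processing notes, the tools were TopHat 1.4.0, Bowtie 0.12.7 and HTSeq on GRCh37. The strand setting, the handling of reads over overlapping genes and the HTSeq version are unstated in the sources used here. Library totals were 18774905 to 24827396 counts.

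Counts were tested in R 4.3.3 with edgeR 4.0.16 (filterByExpr, TMM, robust quasi-likelihood fit of all 12 libraries, 6 residual degrees of freedom, Benjamini-Hochberg adjustment over 17262 genes, calls at 0.05). CPM values are counts scaled by TMM library size, with a prior count of 2 before taking log2. Alternatives were DESeq2 1.42.0, limma-voom (limma 3.58.1), RLE scaling, other filters, fewer libraries and the index set as a block with 5 residual degrees of freedom. The titles number the libraries in 2 runs that each use the 6 index sequences once, and these runs are the index sets. Deviations from group means correlated at 0.415 to 0.858 within sets, so the sets were taken to pair the libraries. The difference between index sets is the block term of that fit. Fits to the 6 VP16 libraries or the 8 libraries without GFP_tracer_Dam and GFP_tracer, both with the block, were chosen after seeing the data. Replicates differed by a chi-square per degree of freedom of 22 to 145, so none was treated as deposited again. The fits to all 12 libraries, with and without the block, were tested on simulated data with known changes. There the fit with the block made some false calls and the fit without it made none. Changes of 1.5-fold were rarely called by either. Changes of 2-fold were rarely called by the fit without the block and more often by the fit with it. A member that the fit without the block did not call may thus still have changed. Only VP16_tracer_Dam against VP16_tracer was simulated. The fits to 6 and 8 libraries were not tested in this way.

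The members and gene lists were chosen with earlier results of these data known. Values per library are given for most members called in a comparison and for some others with small p. ACACA, SCD and CYP51A1 are given by range and median in each index set, and LSS without library values. INSIG1, HMGCS1, SQLE and the genes called in the added fits were chosen after their values were seen. Exon lengths came from GENCODE and matched 27 of 28 members.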

Additional observations from a re-analysis of the deposited data

Results flagged for a closer look

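For 13 member and response pairs, both index sets moved one way in the VP16 clone and the other way in the GFP clone, and edgeR's interaction had an adjusted p of 1 for each. For the response to the tracer the VP16 minus GFP difference in log2 was 0.514 for FDFT1, 0.477 for ACAT2, 0.453 for MVK, 0.45 for FADS2, 0.439 for CYP51A1, 0.436 for FDPS, 0.434 for STARD4, 0.349 for SCD, 0.286 for LSS and 0.197 for ACACA. In the VP16 clone these 10 genes were positive in both sets, and in the GFP clone negative in both. Of all tested genes, 28.8% were positive in both sets in VP16_tracer against VP16_uninduced. In GFP_tracer against GFP_uninduced, 21% were negative in both. The share of all tested genes that met the rule in both clones was not counted, so the 13 pairs are no result about the members. FADS2, which converts linoleate and linolenate in the desaturase pathway, stood at 0.472 and 0.183 in the VP16 clone, against -0.0951 and -0.138 in the GFP clone, in index sets 1 and 2. SCD stood at 0.349 and 0.0944 in the VP16 clone, against -0.139 and -0.14 in the GFP clone. The sterol genes leaned on index set 1, since FDFT1 stood at -0.642 in index set 1 and -0.0709 in index set 2 of the GFP clone.

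For the response to Shield1, the difference was 0.274 for HSD17B7, 0.122 for PMVK and -0.192 for ELOVL6. ELOVL6 stood at -0.143 and -0.00738 in the VP16 clone, against 0.0587 and 0.148 in the GFP clone.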

How the results depend on the processing

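Which members were called depended on the libraries in the fit. Within the VP16 clone the fit to its 6 libraries with the replicate block called 1 member for VP16_tracer and 10 for VP16_tracer_Dam, each against VP16_uninduced, where all 12 libraries gave 0. In the 8-library fit with the block, VP16_uninduced against GFP_uninduced had 8 members and a fatty acid median of -0.0785. That median was -0.06 with all libraries, -0.0905 at a mean of at least 1 CPM, -0.0866 with only the groups compared and -0.0905 with enzymes only. Over 3 conditions the clones had 1 member with DESeq2, 1 with limma-voom, 2 without a filter and 2 with the block. Calls for the clones are not counted for the fit without the 2 libraries that stood apart. The index sets had 13 members without those libraries and 11 without the GFP_tracer_Dam and GFP_tracer groups. Without the 2 libraries the fatty acid median was 0.14 for GFP_tracer_Dam and 0.0664 for GFP_tracer, each against GFP_uninduced of both index sets, where within index set 2 it was 0.01 and -0.07. Without a filter the sterol median of VP16_tracer_Dam against VP16_tracer was 0.0388. The block changed no other call of a member. Each count of called members is to be read beside the share of all genes called in the same fit. Those shares are given above, except for the fit without a filter. The cause of the shifts in calls and medians was not tested.

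Leaving out 1 library at a time gave these ranges for sterol and fatty acid medians. They were -1.02 to 0.0232 and -0.44 to 0.14 for GFP_tracer_Dam against GFP_uninduced, -0.61 to 0.0245 and -0.33 to 0.0638 for GFP_tracer against GFP_uninduced, and -0.68 to 0.34 and -0.37 to 0.24 for GFP_tracer_Dam against GFP_tracer. They were 0.10 to 0.22 and -0.0418 to 0.26 for VP16_tracer_Dam against VP16_uninduced, 0.0654 to 0.20 and 0.0279 to 0.26 for VP16_tracer against VP16_uninduced, and -0.0246 to 0.12 and -0.16 to 0.0192 for VP16_tracer_Dam against VP16_tracer. For VP16 minus GFP they were 0.14 to 0.75 and 0.11 to 0.46 in the tracer response, -0.29 to 0.72 and -0.24 to 0.33 in the Shield1 response, and -0.13 to -0.0564 and -0.27 to 0.0013 in the uninduced state. The members called for the clones over 3 conditions also changed with the library left out. These fits leave a lone library in a group, so their calls are not counted here.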
